A study of Homo sapiens with 6 samples.

Results

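A set of 10 genes that carry iron into, through and out of the cell were followed in SiHa PR cells with and without P4HA3 overexpression. They were chosen by symbol, as members of 1 pathway, and not by their values, though earlier results of these data were known. The genes of uptake were TFRC, STEAP3 and SLC11A2, those of storage FTH1, FTL and NCOA4, that of export SLC40A1, and those of iron sensing ACO1, IREB2 and FBXL5. Each was found once among the 60664 Ensembl genes of the count table, and all 10 passed the filter on low counts that left 15130 genes to test. SiHa is an established human cervical squamous carcinoma line, and SiHa PR are the parental cells of a line selected for lymph node metastasis. The control group held 3 libraries labelled only SiHa PR, and the other group held 3 libraries of SiHa PR cells that overexpressed P4HA3. The methods describe a lentiviral cDNA vector as well as a doxycycline-inducible one. The labels do not say which was used, whether the cells were pools or clones, or whether the control cells carried an empty vector. No agent is named for either group, and nothing says whether the 3 samples of a group were separate cultures, so p-values measure the spread between these samples, which may be technical.

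Total counts ran from 21773488 to 24589095 per control library and from 22160298 to 24939948 per overexpressing library. P4HA3 itself had between 62 and 93 counts in control libraries and between 44775 and 49097 with overexpression. The growth protocol in the labels describes uterine smooth muscle, but the 4 smooth muscle markers examined summed to no more than 2.17 CPM (counts scaled to a common total and normalized by TMM) in any library, while 6 epithelial markers summed to between 6248 and 8500 CPM. Nearly all of that sum came from KRT17, KRT8 and KRT18 (means of 5338, 1817 and 942 CPM in control libraries). EPCAM (5.77 CPM) and KRT19 (0.841 CPM) were low in control libraries, and KRT5 had at most 4 counts in any library. The 2 epithelial markers KRT17 and KRT18 were called lower with overexpression, and the summed level ran from 7382 to 8500 CPM in control libraries and from 6248 to 7289 CPM in the others. Of 3 leukocyte markers, CD14 was lower with overexpression and made up a summed level of 91.3 to 110 CPM in control libraries and 35.1 to 50.9 CPM in the others, while PTPRC and CD68 had at most 2 counts. The 3 fibroblast markers were detected in every library (44.8 to 50.5 CPM in control, 36.6 to 49.2 CPM with overexpression) and none of them was called. The 3 erythroid markers stayed at 4 counts or fewer. The part of these markers in the results was not tested. In such bulk libraries fewer cells of a type and less RNA per cell cannot be told apart.

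Most cells take up iron as ferric iron bound to transferrin, which enters with the transferrin receptor TFRC, is reduced in the endosome by STEAP3 and passes into the cytosol through the transporter SLC11A2 (DMT1). Iron that is not used is stored in ferritin, a shell of FTH1 and FTL subunits, and is set free again when NCOA4 carries ferritin to the lysosome. Ferroportin (SLC40A1) exports iron. The iron regulatory proteins IRP1 (ACO1) and IRP2 (IREB2) bind hairpins called iron-responsive elements, which holds back translation when the hairpin lies in the 5′ UTR and protects the mRNA from decay when it lies in the 3′ UTR. FBXL5 is the iron-sensing part of a ubiquitin ligase that removes IREB2 protein. Ferroptosis depends on the iron that this system leaves free, and the prolyl 4-hydroxylases, P4HA3 among them, use iron as a cofactor.

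The hairpins are shown because their place differs among the members with a match. These regulators act on TFRC at the level of mRNA decay. On FTH1, FTL and SLC40A1 they act mainly at translation, which a count of mRNA does not record. The search was for a C, 5 bases of any kind, CAGTG and 1 more base, followed by 5 bases that pair with the first 5 (G-T pairs allowed), on the sense strand of the Ensembl canonical transcript of each protein-coding gene (GENCODE 44, GRCh38). It matched 1.31% of 20046 such transcripts anywhere, 0.0948% of them in the 5′ UTR and 0.609% in the 3′ UTR. Each sequence is written as DNA, 5′ to 3′, with the 6 loop bases in capitals. The element of FTH1 lies at chr11:61967575-61967601 (minus strand), that of FTL at chr19:48965336-48965362 (plus strand) and that of SLC40A1 at chr2:189580662-189580688 (minus strand), each with 1 match in the 5′ UTR. TFRC had 4 matches in the 3′ UTR, all on the minus strand of chromosome 3, at chr3:196050980-196051006 (a), chr3:196050576-196050602 (b), chr3:196050511-196050537 (c) and chr3:196050464-196050490 (d).
FTH1: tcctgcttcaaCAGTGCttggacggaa
FTL: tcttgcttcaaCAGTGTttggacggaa
SLC40A1: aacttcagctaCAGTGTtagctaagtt
TFRC a: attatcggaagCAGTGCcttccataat
TFRC b: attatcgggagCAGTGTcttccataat
TFRC c: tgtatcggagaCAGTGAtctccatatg
TFRC d: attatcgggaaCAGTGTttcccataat
The canonical transcript of SLC11A2 held no match to these letters. Other transcripts were not searched and 5 unbroken pairs were required, so a miss does not show that a gene lacks such an element.

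The first question was how far apart the members lay in abundance, which was read per kilobase of canonical transcript so that genes of different length could be compared. FTL was the most abundant member in control cells at 7417 ± 594 CPM per kb (SD, n = 3), followed by FTH1 at 5172 ± 323 CPM per kb. The libraries of FTL and FTH1 did not overlap in either group on this scale, which divides by a canonical transcript of 871 bases for FTL and 1203 bases for FTH1. Exons of another gene overlap those of FTH1 on the opposite strand, and processed copies of both genes can share their reads. How many reads this kept out of the counts was not tested. Ferritin mRNA took between 1.18% and 1.34% of all counts in a library, and both subunits were in the top 1 percent of tested genes by mean CPM. NCOA4 (55.9 ± 2.51 CPM per kb) and TFRC (51.9 ± 2.34 CPM per kb) came next in control cells, 92.5 times below FTH1 in the case of NCOA4, and these neighbours overlapped in both groups. FBXL5 (18.3 CPM per kb), ACO1 (17.2), SLC11A2 (14.6), IREB2 (14.3) and STEAP3 (12.2) lay close together. In control cells the neighbours FBXL5 and ACO1, and SLC11A2 and IREB2, could not be told apart by their library ranges. With overexpression IREB2 stood at 17.5 ± 2.47 CPM per kb (SD, n = 3), between FBXL5 at 19.0 ± 0.751 and ACO1 at 15.9 ± 0.551, but its libraries (15.1 to 20.05 CPM per kb) overlapped those of both. SLC11A2 followed at 13.2 ± 0.589 CPM per kb. SLC40A1 was lowest at 0.626 ± 0.107 CPM per kb in control cells, 19.5 times below STEAP3, and rested on 35 to 52 counts per library.

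**Figure D1:**
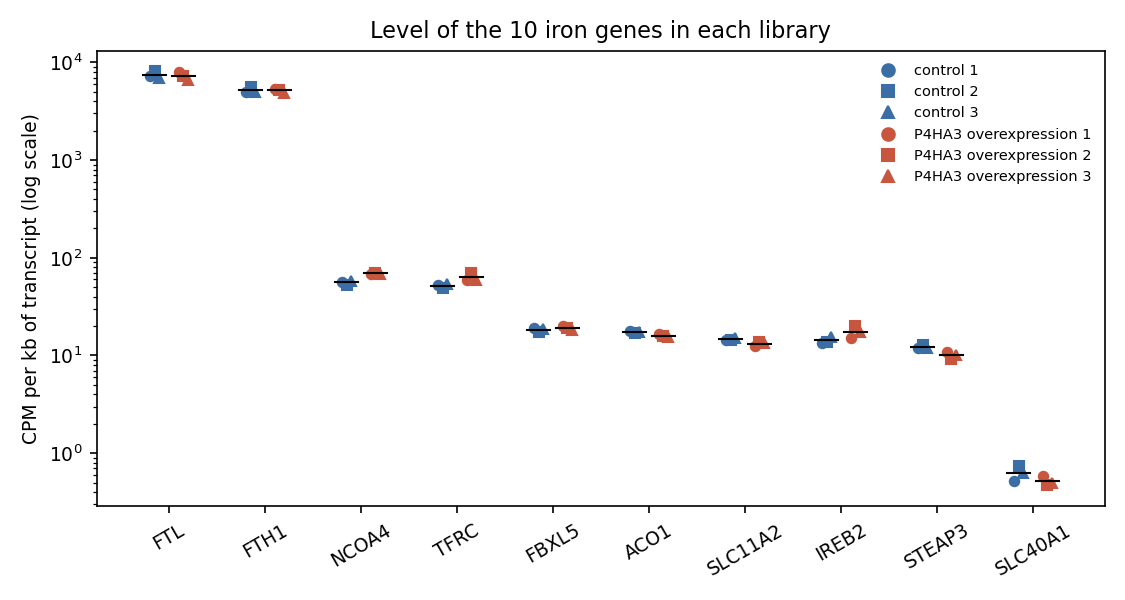
Level of each member in TMM-normalized CPM per kilobase of canonical transcript on a log axis, with 1 point per library (blue control, red P4HA3 overexpression, circle, square and triangle for replicates 1, 2 and 3) and a black line at each group mean. FTL and FTH1 stand far above the rest, 7 genes lie between 9.18 and 69.8 CPM per kb, and SLC40A1 lies below 1 CPM per kb in every library.

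Of the 10 members, 2 rose (NCOA4 and TFRC), 1 fell (STEAP3) and 7 did not pass an adjusted p of 0.05 in the edgeR quasi-likelihood test. Over all genes, 20.8% of tested genes were called, 9.36% as higher and 11.4% as lower, so 3 of 10 is near the background. The median log2 fold change of the members was -0.02, against 0.01 over all tested genes. The libraries of the groups did not overlap in 5 members, TFRC, STEAP3, SLC11A2, NCOA4 and ACO1, against a background of 40.1% of tested genes. All 10 log2 fold changes lay between -0.27 and 0.30.

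Among the genes of uptake, TFRC (ENSG00000072274, chromosome 3 of GRCh38, 196012511 to 196082153, minus strand) rose with P4HA3 overexpression. Its expression was 263, 247 and 270 CPM in control replicates 1, 2 and 3, and 299, 350 and 296 CPM in overexpression replicates 1, 2 and 3. The groups did not overlap, with overexpression replicate 2 the highest library. The mean went from 260 ± 11.7 to 315 ± 30.4 CPM (SD, n = 3), a rise of 21.1% with a 95% confidence interval from 8.21% to 35.5%. The log2 fold change was 0.28 (standard error, SE, 0.0733, edgeR adjusted p = 0.0268). The call was lost without control replicate 1 (log2 fold change 0.28, adjusted p = 0.0911), control replicate 2 (0.24, 0.126), overexpression replicate 2 (0.19, 0.0586) or overexpression replicate 3 (0.32, 0.0586).

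STEAP3 (ENSG00000115107, chromosome 2, 119223831 to 119265652, plus strand), the endosomal ferrireductase, went the other way. It was at 50.4, 54.5 and 50.8 CPM in the control replicates, and at 46.5, 39.1 and 43.2 CPM in the overexpression replicates. All 3 overexpressing libraries were below all 3 control libraries. The mean fell from 51.9 ± 2.28 to 42.9 ± 3.69 CPM (SD, n = 3), with a log2 fold change of -0.27 (SE 0.0758, edgeR adjusted p = 0.0313). As with TFRC, leaving out control replicate 1, control replicate 2, overexpression replicate 2 or overexpression replicate 3 ended the call (log2 fold change -0.29, -0.24, -0.21 and -0.28, adjusted p = 0.0894, 0.14, 0.0662 and 0.0953). Exons of the antisense gene STEAP3-AS1 overlap 500 bases of STEAP3 exons, and that gene had at most 2 counts.

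SLC11A2 (ENSG00000110911, chromosome 12, 50979401 to 51028566, minus strand), through which ferrous iron leaves the endosome, was not called. It was at 60.0, 59.3 and 61.7 CPM in control replicates, and at 51.8, 56.4 and 55.3 CPM with overexpression. The overexpressing libraries lay below the control libraries without overlap, with a log2 fold change of -0.15 (SE 0.0605, edgeR adjusted p = 0.104). The 95% interval reached from a difference of -17.7% to one of -0.855%.

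In the storage group, NCOA4 (ENSG00000266412, chromosome 10, 46005088 to 46030623, minus strand), the cargo receptor for ferritin in autophagy, rose. It was at 195, 184 and 201 CPM in control replicates, and at 238, 241 and 238 CPM in overexpression replicates. The 3 overexpressing libraries lay within 3 CPM of each other and above every control library. The mean went from 193 ± 8.67 to 239 ± 1.52 CPM (SD, n = 3), a rise of 23.5% with a 95% interval from 13.7% to 34.1%. The log2 fold change was 0.30 (SE 0.0538, edgeR adjusted p = 0.00613), and NCOA4 was called higher in each of the 14 alternatives, with adjusted p between 7.61e-05 and 0.0414.

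The ferritin genes themselves, which NCOA4 serves, were not called. FTH1 (ENSG00000167996, chromosome 11, 61959718 to 61967634, minus strand), the ferroxidase subunit, was at 6055, 6666 and 5945 CPM in control replicates, and at 6487, 6322 and 5797 CPM with overexpression. FTL (ENSG00000087086, chromosome 19, 48965309 to 48966879, plus strand), the light subunit, was at 6318, 7034 and 6029 CPM in control replicates, and at 6928, 6252 and 5762 CPM with overexpression. In both genes the libraries of the groups were interleaved, and the means differed by less than the spread between replicates. The log2 fold change was -0.0045 for FTH1 (SE 0.0789, edgeR adjusted p = 0.972) and -0.03 for FTL (SE 0.0911, adjusted p = 0.81). The 95% interval of the difference was -11.7% to 12.5% for FTH1 and -15.0% to 12.4% for FTL. Changes within those bounds remain compatible with these counts.

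Ferritin genes have many processed copies in the genome that can share their reads. The table held 25 FTH1 and 16 FTL pseudogenes, which together had between 0.767% and 0.952% of the counts of FTH1 and between 0.0521% and 0.076% of those of FTL. Of these, 8 FTH1 copies (FTH1P2, FTH1P5, FTH1P7, FTH1P8, FTH1P10, FTH1P11, FTH1P20 and FTH1P23) and 1 FTL copy (FTLP3) reached 10 counts in a library, and none of them was called. FTH1P7 was the highest with 567 to 603 counts in control and 498 to 550 with overexpression. Adding the copies to their parent gave log2 fold changes of -0.0059 for FTH1 and -0.03 for FTL. Exons of BEST1 on the opposite strand overlap 1267 of the 2004 exonic bases of FTH1, and the strand setting of the counting is not stated. BEST1 had between 655 and 940 counts in control and between 370 and 602 with overexpression (log2 fold change -0.76, adjusted p = 0.0233), under 1 percent of the count of FTH1. The counts of BEST1 and of the copies do not show how many shared reads were left out of the table.

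SLC40A1 (ENSG00000138449, chromosome 2, 189560590 to 189583758, minus strand), the only known cellular iron exporter in vertebrates, was scarce. It had 42, 52 and 51 counts in control replicates, and 45, 35 and 42 counts in overexpression replicates. The groups overlapped. The log2 fold change was -0.27 (SE 0.183, edgeR adjusted p = 0.291), as large as that of STEAP3 but with a 95% interval from -37.5% to 9.59%.

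Among the genes of iron sensing, IREB2 (ENSG00000136381, chromosome 15, 78437431 to 78501453, plus strand) was at 84.5, 87.6 and 98.4 CPM in control replicates, and at 95.6, 127 and 109 CPM with overexpression. Overexpression replicate 1 lay below control replicate 3. The log2 fold change was 0.29 (SE 0.0981), close to that of NCOA4, but with an adjusted p of 0.0567 from edgeR it was not called. It was called by DESeq2 (adjusted p = 0.0223), with no filter on low counts (0.000366), with the replicate number as a block (0.00772), without control replicate 3 (0.0437) and without overexpression replicate 1 (0.00352), and not in the other 9 alternatives. Without overexpression replicate 2, the highest library, its log2 fold change was 0.18 (adjusted p = 0.129). ACO1 (ENSG00000122729, chromosome 9, 32384603 to 32454769, plus strand), which is an aconitase when it holds an iron-sulfur cluster and an RNA-binding protein when it does not, was at 131, 125 and 129 CPM in control replicates, and at 122, 119 and 114 CPM with overexpression. Its groups did not overlap, and its log2 fold change of -0.11 (SE 0.0537, adjusted p = 0.141) was not called. FBXL5 (ENSG00000118564, chromosome 4, 15604381 to 15681679, minus strand) was at 65.8, 60.3 and 65.7 CPM in control replicates, and at 69.1, 66.1 and 63.9 CPM with overexpression, with overlapping groups and a log2 fold change of 0.05 (SE 0.0627, adjusted p = 0.554).

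**Figure D2:**
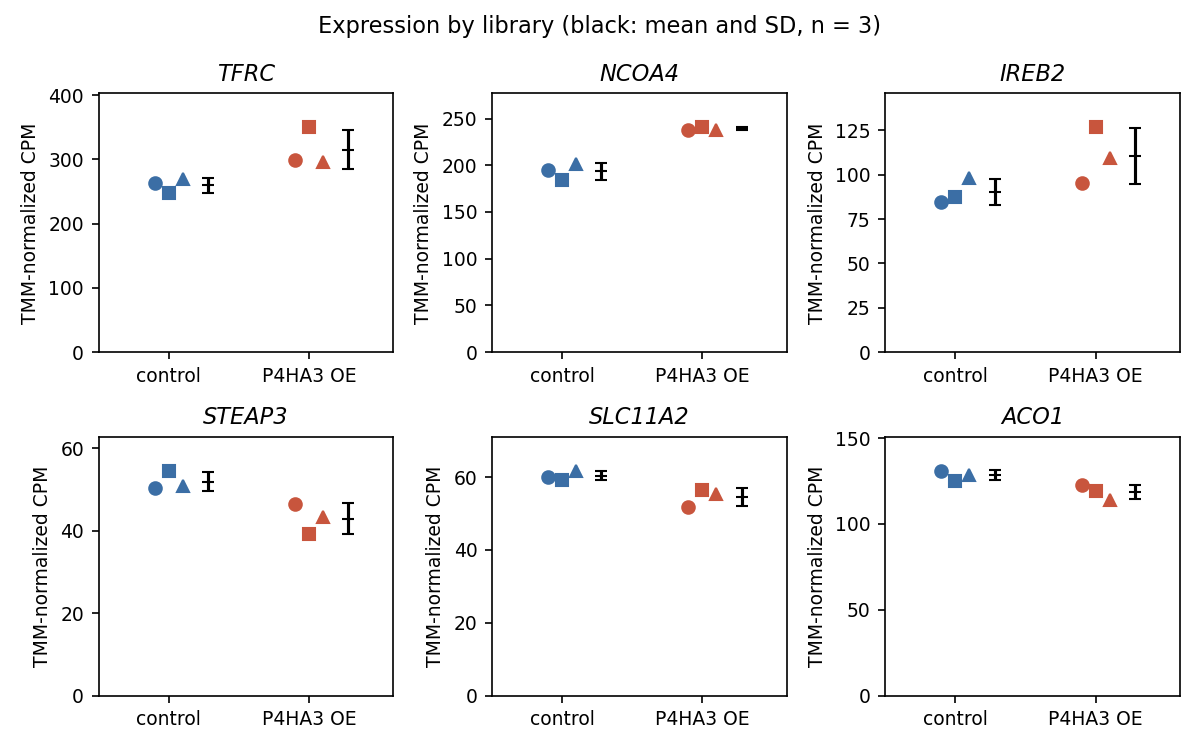
TMM-normalized CPM of 6 members in each library, with each axis starting at 0, control in blue, P4HA3 overexpression (OE) in red, circle, square and triangle for replicates 1, 2 and 3, and the mean and SD in black (n = 3). The groups are separate for TFRC, NCOA4, STEAP3, SLC11A2 and ACO1 and overlap for IREB2, where overexpression replicate 1 is at 95.6 CPM and control replicate 3 at 98.4 CPM.

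The differences between the groups moved with the GC content of transcripts over the whole table. Log2 fold changes had a Spearman's rho of -0.58 with GC content across 15107 genes, which are not independent replicates. Libraries of the same group also differed along GC content. The deviation of a library from its group mean had a rho with GC content of 0.22, 0.38 and -0.52 in control replicates 1, 2 and 3. In overexpression replicates 1, 2 and 3 that rho was 0.45, -0.48 and 0.08. The part of this spread in the calls was not tested. Among the called members, those that rose had canonical transcripts of low GC content (TFRC 40.9%, NCOA4 42.7%), and STEAP3, which fell, had the highest (56.8%). The 7 members not called are given here from low to high GC content. Their log2 fold changes were 0.29 (IREB2, 38.2%), 0.05 (FBXL5, 39.4%), -0.27 (SLC40A1, 41.4%) and -0.15 (SLC11A2, 43.1%). ACO1 (45.6%) followed at -0.11, FTH1 (50.0%) at -0.0045 and FTL (56.0%) at -0.03. The smooth trend of each library on GC content and length was then removed, which takes away any group difference that follows either, technical or not. After that 1 member was called higher and 2 lower, against a background of 10.6% and 7.95% of tested genes. NCOA4 kept its call at a rise of 14% (log2 fold change 0.19, SE 0.0407, adjusted p = 0.00892). TFRC went to 0.10 (adjusted p = 0.154), IREB2 to 0.05 (adjusted p = 0.349) and STEAP3 to -0.15 (adjusted p = 0.103). SLC11A2 was then called lower, at 63.2, 63.7 and 61.7 corrected CPM in control replicates and 52.3, 51.6 and 53.0 with overexpression (log2 fold change -0.27, adjusted p = 0.00171), and so was ACO1 (log2 fold change -0.22, adjusted p = 0.0314). FTH1 (0.05), FTL (0.13) and FBXL5 (-0.12) changed sign and were not called.

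**Figure D3:**
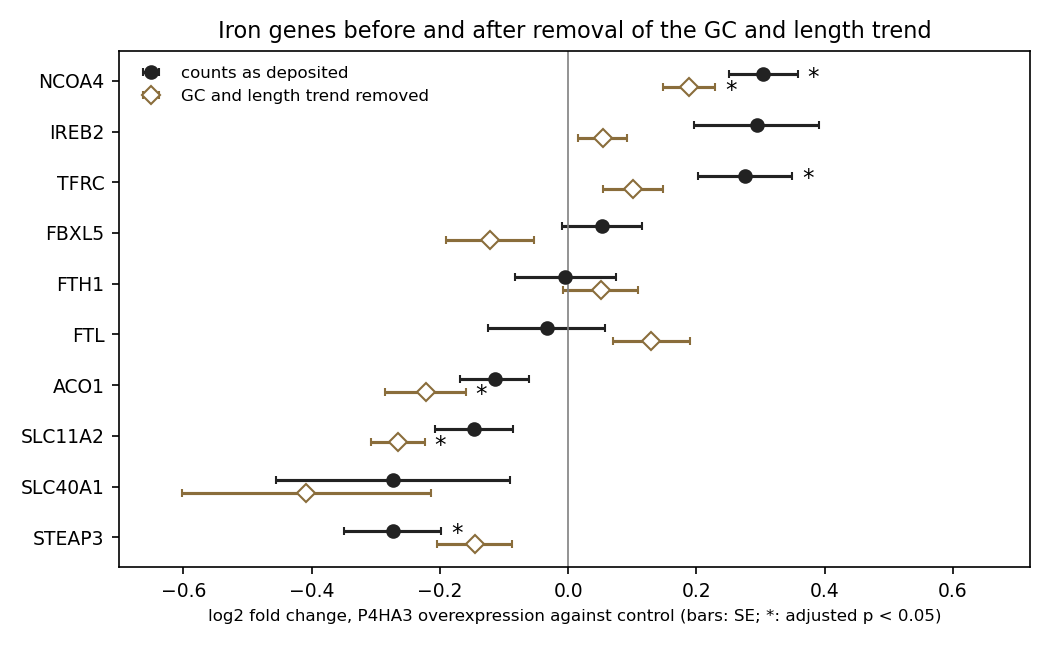
Log2 fold change of each member with P4HA3 overexpression against control, from the counts as deposited (filled circles) and with the trend of each library on GC content and transcript length removed (open diamonds), with standard errors as bars and a star for an adjusted p under 0.05. NCOA4 carries a star in both (0.30 and 0.19), TFRC and STEAP3 only before the removal, and SLC11A2 and ACO1 only after it.

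Ratios of counts within a library were compared because they do not depend on depth. They are ratios of mRNA and do not give the balance of the proteins. FTH1 to FTL, the balance of ferroxidase and light subunit, had a log2 ratio of -0.05 ± 0.0295 in control cells and -0.02 ± 0.0621 with overexpression (SD, n = 3), and the libraries overlapped (difference 0.03, exact permutation test, two-sided p = 0.5). With the trend on GC content and length removed the difference turned to -0.08, with no overlap between the groups (exact p = 0.1). TFRC to FTH1 set an mRNA of uptake against one of storage. It had log2 ratios of -4.53, -4.75 and -4.46 in control replicates and of -4.44, -4.17 and -4.29 with overexpression. Its groups did not overlap and its mean was 0.28 higher, with an exact permutation p of 0.1 (two-sided), and 3 libraries against 3 allow no smaller p. With the trend on GC content and length removed the difference was 0.05 (exact p = 0.7). ACO1 to IREB2 set the mRNAs of both iron regulatory proteins against each other. It had log2 ratios of 0.63, 0.52 and 0.39 in control replicates and of 0.36, -0.09 and 0.06 with overexpression. All 3 overexpressing libraries were below all 3 control libraries, and the mean was 0.40 lower (difference -0.40, exact p = 0.1), so the ratio was 0.756 times that in control cells. With the trend removed the difference was -0.28, still without overlap (exact p = 0.1).

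**Figure D4:**
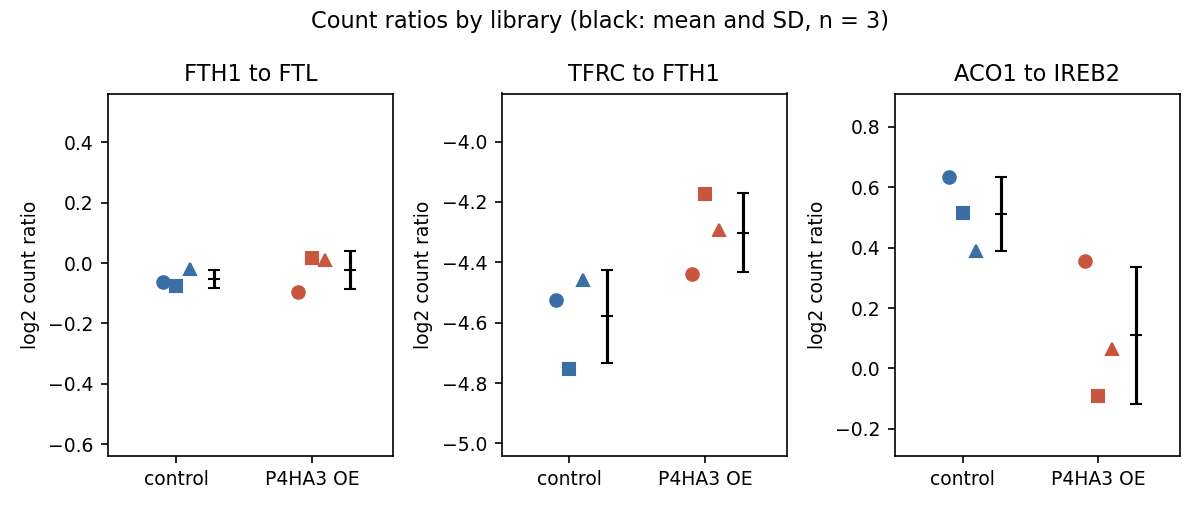
Log2 ratio of the counts of FTH1 to FTL, TFRC to FTH1 and ACO1 to IREB2 in each library (circle, square and triangle for replicates 1, 2 and 3), with the mean and SD in black (n = 3) and axes that span the same width in log2 units. The groups overlap for FTH1 to FTL, TFRC to FTH1 is higher in every overexpressing library, and ACO1 to IREB2 is lower in every overexpressing library.

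The members were set beside 82 other genes of iron handling in 7 lists, and 71 of these genes were tested. The lists were drawn up by function, with earlier results of these data known. With overexpression 4 rose, 10 fell and 57 were not called by edgeR, with a median log2 fold change of -0.05 against 0.01 over all tested genes. Over all genes, 9.36% of tested genes were higher and 11.4% lower. Single libraries changed these counts. Without control replicate 1, without control replicate 2 or without overexpression replicate 3, edgeR called 0 companions higher (8, 5 and 5 at an unadjusted p under 0.05) and 1 lower, which was SLC39A8. Without overexpression replicate 2, 4 were higher and 5 lower, and without control replicate 3, 2 were higher and 9 lower. Without overexpression replicate 1, 8 were higher and 21 lower. Calls over the whole table moved as well. Without control replicate 1 they were 229 higher and 552 lower of 15331 tested genes. Without control replicate 2 they were 163 and 371 of 15380, and without overexpression replicate 3, 275 and 629 of 15358. Without overexpression replicate 2 they were 884 and 1322 of 15386. The omission of control replicate 3 gave 1393 and 1792 of 15337, and that of overexpression replicate 1 gave 2814 and 2716 of 15414. The 11 companions not tested (TF, LCN2, HEPH, HEPHL1, HAMP, HJV, TMPRSS6, BOLA2, FTMT, FDX2 and ALAS2) had at most 6 counts in a library. Transferrin (TF) had 0, 0 and 1 counts in control replicates and 4, 3 and 1 with overexpression, too few to test, hepcidin (HAMP) had at most 1 count, and mitochondrial ferritin (FTMT) had 0 in every library. BOLA2 has a near-identical copy that can take its reads, and its level is uncertain. FDX2 had 0 counts in every library, and whether its reads were lost in the counting was not tested.

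In the list of uptake and endosomal release, 3 of 10 tested genes fell and 0 rose (0 also by DESeq2 and limma-voom, 1 at an unadjusted edgeR p under 0.05), with a median log2 fold change of -0.14. Over all tested genes, 11.4% fell and 9.36% rose. SLC39A8 (ZIP8), a plasma membrane carrier of zinc, manganese and iron, went from 221, 208 and 224 CPM in control replicates to 147, 137 and 154 CPM with overexpression. Its groups lay far apart, the log2 fold change was -0.57 (SE 0.0604, edgeR adjusted p = 0.000664), and it was called lower in each of the 14 alternatives. CYBRD1, a ferric reductase that supplies ferrous iron to SLC11A2, fell from 214 ± 11.05 to 186 ± 2.09 CPM (SD, n = 3, log2 fold change -0.20, adjusted p = 0.0294). It was the third by size of the falls in this list and is named after its values were seen. TFR2, a transferrin receptor that takes part in iron sensing in the liver, fell at a low level, from 15.9 ± 2.07 to 12.4 ± 0.552 CPM (SD, n = 3, log2 fold change -0.36, adjusted p = 0.042). With the trend on GC content and length removed SLC39A8 (-0.68) and CYBRD1 (-0.37) were still called, and TFR2 (-0.13, adjusted p = 0.298) was not.

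Of 5 tested genes of iron chaperoning and ferritin turnover 1 rose and 0 fell (0 also by DESeq2, limma-voom and at an unadjusted edgeR p under 0.05), with a median of 0.16. The shares over all tested genes were 9.36% and 11.4%. TAX1BP1, an autophagy receptor that binds NCOA4, was at 77.3, 86.1 and 92.5 CPM in control replicates, and at 99.5, 140 and 110 CPM with overexpression. The groups did not overlap, as for NCOA4. The log2 fold change was 0.45 (SE 0.115, edgeR adjusted p = 0.024), and 0.24 (adjusted p = 0.0208) with the trend on GC content and length removed. Without overexpression replicate 2, the highest library, it was 0.30 (adjusted p = 0.0201), and the call was lost without control replicate 1 (0.38, adjusted p = 0.0987), control replicate 2 (0.46, 0.11) or overexpression replicate 3 (0.49, 0.0652). Neither of the 2 tested genes of the export and hepcidin list, and none of the 5 tested genes among other mRNAs with an iron-responsive element, was called by edgeR, DESeq2 or limma-voom, and at an unadjusted edgeR p under 0.05 there were 0 in the first list and 2, both higher, in the second.

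Among the 12 genes of cytosolic iron-sulfur assembly and the partners of FBXL5, 1 rose and 1 fell (9.36% and 11.4% over all tested genes), with a median of -0.08. Those were NUBP1 (43.8 ± 0.961 to 52.7 ± 3.99 CPM, SD, n = 3, log2 fold change 0.27, adjusted p = 0.026) and NUBP2 (193 ± 20.2 to 145 ± 20.7 CPM, log2 fold change -0.41, adjusted p = 0.023), which form a common scaffold on which cytosolic clusters are built. They moved in opposite directions. With the trend on GC content and length removed NUBP1 (0.37) was still called and NUBP2 (-0.11, adjusted p = 0.179) was not.

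Of 20 tested genes of mitochondrial iron and iron-sulfur clusters 2 rose and 3 fell (9.36% and 11.4% over all tested genes), with a median of -0.08. The cluster transfer factor BOLA3 rose from 34.97 ± 1.27 to 41.1 ± 1.36 CPM and the chaperone HSPA9 from 441 ± 20.3 to 515 ± 9.52 CPM (SD, n = 3, adjusted p = 0.0327 and 0.0232). The cluster protein CISD3 fell from 88.4 ± 9.36 to 67.2 ± 7.34 CPM and the transporter ABCB8 from 42.6 ± 3.00 to 35.7 ± 1.68 CPM (SD, n = 3, adjusted p = 0.0192 and 0.0367). The third that fell, SLC25A37 (mitoferrin-1), the importer of iron into mitochondria, went from 60.8 ± 1.05 to 53.4 ± 0.832 CPM (SD, n = 3, adjusted p = 0.0404) and is named after its values were seen, since only the pair of largest falls in a list was to be named. It was called in 6 of 14 alternatives, and not by DESeq2 (adjusted p = 0.0629), with no filter on low counts (0.113) or with the replicate block (0.0651). With the trend on GC content and length removed BOLA3, CISD3 and SLC25A37 were still called, and HSPA9 (log2 fold change 0.22 before and 0.08 after, adjusted p = 0.215) and ABCB8 (-0.26 before and -0.08 after, adjusted p = 0.354) were not.

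Of 17 tested genes of heme synthesis, transport and breakdown 0 rose (0 also by DESeq2, limma-voom and at an unadjusted edgeR p under 0.05) and 3 fell, with a median of -0.13. Over all tested genes, 9.36% rose and 11.4% fell. BLVRB, a biliverdin reductase, fell from 138 ± 11.05 to 105 ± 10.9 CPM (SD, n = 3, adjusted p = 0.013), and PPOX, an enzyme late in heme synthesis, from 16.6 ± 0.529 to 13.7 ± 0.962 CPM (SD, n = 3, adjusted p = 0.0495). PPOX was called in 5 of 14 alternatives, and not by DESeq2 (adjusted p = 0.0822). The third was the heme transporter SLC48A1 (38.1 ± 1.21 to 31.8 ± 1.32 CPM, SD, n = 3, adjusted p = 0.0239), again named after its values were seen. All 3 have GC-rich transcripts (57.7% to 61.1%), and with the trend removed only BLVRB of these 3 (log2 fold change -0.15, adjusted p = 0.044) was still called.

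**Figure D5:**
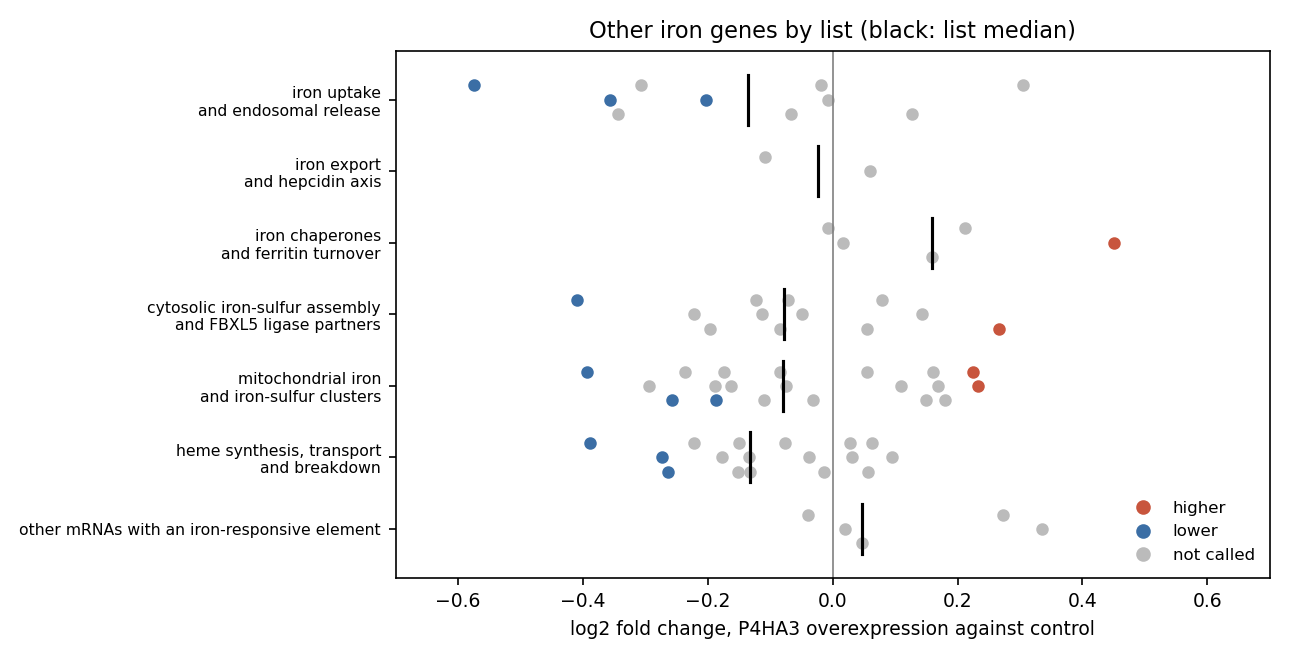
Log2 fold change with P4HA3 overexpression of each tested companion gene (1 point per gene, spread vertically only for legibility), by list, with genes called higher in red, called lower in blue and not called in grey, and a black line at the median of each list. The points run from -0.57 (SLC39A8) to 0.45 (TAX1BP1), and the medians of the lists lie between -0.14 and 0.16.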

How the data were processed

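RNA-seq of 6 libraries (3 SiHa PR control, 3 SiHa PR P4HA3 overexpression) was analysed from the raw counts per Ensembl gene that the authors deposited, 1 column per library with no normalization. Per the study's methods, poly-A RNA was made into strand-specific paired-end libraries, and reads were aligned to GRCh38 (Ensembl 104) and counted with HTSeq. The methods name STAR as aligner and the submitters' processing notes name HISAT2. Versions and the strand setting are not given in the sources used here. Samples were grouped by the labels.

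Counts were fitted with edgeR 4.0.16 (R 4.3.3): filterByExpr with a minimum count of 10, TMM normalization, and the two-sided quasi-likelihood test on group alone, adjusted by Benjamini-Hochberg over all 15130 tested genes. Genes with an adjusted p under 0.05 were called, and each standard error is the log2 fold change divided by the square root of the F statistic. Ids were matched to GENCODE 44, which gave symbols, positions and the length and GC content of canonical transcripts, and 60463 of 60664 ids matched. Ratios of counts were compared by an exact permutation test over libraries. The GC and length trend of each library was fitted with mgcv 1.9.3 and entered as offsets. Alternatives were RLE normalization, DESeq2 1.42.0, limma-voom (limma 3.58.1), no filter or at least 10 counts in every library, the replicate number as a block, the trend offsets with and without that block, an adjusted p under 0.01, addition of ferritin pseudogene counts, and omission of each library in turn. The fit was tested on simulated data.

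Named genes were all 10 members, P4HA3, in each companion list the 2 largest rises and the 2 largest falls among called genes, and ferritin pseudogenes with 10 counts or more in a library. Markers and overlapping genes are given as checks. The members, lists and tests were chosen with earlier results of these data known. Intervals cover the spread between these libraries, and counts without molecular identifiers are not independent molecules.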

Additional observations from a re-analysis of the deposited data

How the results depend on the processing

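NCOA4 and SLC39A8 kept their direction and their call under all 14 alternatives run on them, and the cause of the changes listed here was not tested. With the trend on GC content and transcript length removed, 1 member was higher and 2 were lower (1 and 0 of these were also called without the removal), 7 companions were higher, and 1597 genes of the whole table were higher and 1203 lower, against 1416 and 1731 without it. FTH1 (0.051), FTL (0.13), FBXL5 (-0.12) and the log2 ratio of FTH1 to FTL (-0.078, exact p = 0.1) then reversed their sign. The replicate numbers did not pair the libraries (correlations of deviations 0.25, -0.0486 and 0.0297). The replicate block gave 3 members higher (with IREB2 added) and 1 lower, and 6 companions higher and 13 lower. It also raised the calls over the whole table, to 2138 higher and 2175 lower of 15130 tested genes. The replicate block together with the trend removed gave 2 members higher and 2 lower, and 9 companions higher and 13 lower. Over the whole table it gave 2149 genes higher and 1663 lower. FTH1 was then at 0.0507, FTL at 0.129 (edgeR adjusted p = 0.0426) and FBXL5 at -0.122. At an adjusted p under 0.01, 1 member (NCOA4) was higher and 0 were lower by edgeR, and 0 companions were higher and 1 lower, where an unadjusted p under 0.05 gave 3 and 2 members and 13 and 17 companions. DESeq2 at 0.05 called 3 members higher and 1 lower, and limma-voom 2 and 1. Over the whole table DESeq2 called 1508 genes higher and 1520 lower of 12595 tested, and limma-voom 1347 and 1714 of 15130. Leaving out 1 library at a time gave 1 to 3 members higher, 0 to 1 lower, 0 to 8 companions higher and 1 to 21 lower by edgeR (unadjusted p under 0.05: 2 to 3, 1 to 2, 5 to 12 and 10 to 25), with FTH1 between -0.037 and 0.0485 and FTL between -0.104 and 0.033. Without control replicate 1, control replicate 2 or overexpression replicate 3, calls over the whole table fell to 229 higher and 552 lower, 163 and 371, and 275 and 629, and without overexpression replicate 1 they rose to 2814 and 2716. FTH1 was at 0.0064 with no filter on low counts. Depth limits SLC40A1 alone among the members, at 35 to 52 counts per library.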
